A study of Mus musculus with 1152 samples.

Results

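Coagulation and haemostasis genes were examined in single LECs, the lymphatic endothelial cells, sorted from the nasopharyngeal lymphatic plexus (NPLP) in old age. The 9 genes were taken by name, and all 9 were among the 23168 genes of the table. They were factor VIII (F8), von Willebrand factor (Vwf), multimerin 1 (Mmrn1), thrombospondin 1 (Thbs1), thrombomodulin (Thbd), the endothelial protein C receptor (Procr), protein S (Pros1), tissue factor pathway inhibitor (Tfpi) and tissue-type plasminogen activator (Plat). The cells came from aged mice of both sexes, labelled C57BL/6 and named C57BL/6J in the study's methods on animals, were sorted as positive for CD31 and podoplanin (PDPN) from pooled nasopharyngeal mucosa, and were sequenced by Smart-seq3, which reads transcripts along their full length from cells in plate wells. Aged NPLP LECs were the only group, and 56.9% of its labelled cells were analysed here. The mouse behind each cell was not given, so the cells formed 1 pool without replicates, and no test between conditions or animals could be made.

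Blood clotting is a cascade of proteases that ends in fibrin, and endothelium both feeds and restrains it. Factor VIII is the cofactor that speeds activation of factor X, and von Willebrand factor carries factor VIII in plasma and tethers platelets to the vessel wall. Thrombomodulin, the protein C receptor and protein S together run the anticoagulant protein C pathway, TFPI blocks the tissue factor step, and tissue plasminogen activator starts the dissolution of fibrin. Lymph clots more slowly than blood, and lymphatic endothelium is known as a source of factor VIII and of multimerin 1, a carrier of factor V that is used as a lymphatic marker.

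The cells fitted their label. All 6 listed markers of lymphatic identity were found in 94.8% to 100% of cells. Among them Pdpn (94.8%) and Pecam1 (99.2%), which encodes CD31, were behind the sort and give no separate support. Prox1, Flt4, Cdh5 and Lyve1, not used in the sort, were in 95.9% to 100%. Depth varied from 7046 to 10727631 reads per cell, with a median of 148202.5, so shares were also taken at a fixed depth of 20000 reads, to which the deeper cells, 86.6% of all, were thinned. Intervals are exact (Clopper-Pearson) 95% intervals and cover counting error only. Where no cell had a transcript, 3 cells of the total serve as the limit (the 3-cell rule), which is lower than the exact upper end. Levels are natural logs of 1 plus reads per 10000 unless another scale is named. A cell with a value above 0 had at least 1 read of the gene and is called positive.

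Most of the 9 genes were found in most cells, and Vwf was the exception. The share of positive cells ran from 10.4% for Vwf to 100% for Mmrn1, with a median of 64% over the genes, and 8 of the 9 were in more cells than not. At 20000 reads the median share was 50%. No cell at that depth was without all 9 genes, and none had all 9. The median cell had reads of 5 of them, with a range of 1 to 8.

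F8, on chromosome X (GRCm38, chrX:75172715-75382615, minus strand), encodes factor VIII, whose loss causes haemophilia A. It was detected in 50.6% of cells (46.7 to 54.5). Its lowest value was 0, its median 0.0042 and its highest 3.23, so the middle of the cells lay at the edge of detection while the top of the range was well above it. With depth held at 20000 reads F8 was in 36.6% of cells (32.6 to 40.7), and among the 130 cells with at least 1000000 reads it was in 63.1% (54.2 to 71.4). Many deep cells thus still had no F8 read, and the top 10% of cells held 61% of the summed F8 level.

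Vwf (chr6:125546774-125686679, plus strand) encodes the multimeric protein that blood endothelium stores in Weibel-Palade bodies. It was detected in 68 cells, 10.4% (8.14 to 13), and in 29 cells at 20000 reads, 5.11% (3.45 to 7.25). Even in the deep cells the share was 17.7% (11.6 to 25.4). The lowest and the median value were 0 and the highest was 3.34, equal to 27.3 reads per 10000. Vwf reads were thus concentrated in few cells: the 10 highest cells held 67% of the summed level.

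Mmrn1 (chr6:60924976-60989378, plus strand) was the opposite case. Every cell had Mmrn1 reads, which sets the lower bound of the share at 99.4%, and 99.8% of cells still had them at 20000 reads. Values ran from 0.35 through a median of 3.65 to 5.12. The top 10% of cells held 22.6% of the summed level. Thbs1 (chr2:118111876-118127133, plus strand), which encodes a matrix glycoprotein that binds platelets and restrains vessel growth, was in 61.6% of cells (57.7 to 65.3), with a lowest value of 0, a median of 0.094 and a highest of 3.57. Its exons overlap those of Gm29233 on the opposite strand, and since use of strand in counting was not stated, reads of these genes cannot be told apart.

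Thbd and Pros1, both anticoagulant, were the most widely shared genes after Mmrn1. Thbd (chr2:148404466-148408188, minus strand), the receptor that turns thrombin from a clotting into an anticoagulant enzyme, was in 93.8% of cells (91.6 to 95.5). Its lowest value was 0, its median 1.36 and its highest 3.66. Pros1 (chr16:62854307-62929346, plus strand), the cofactor of activated protein C, was in 89.3% (86.7 to 91.6), from 0 through a median of 1.17 to 3.22. These genes kept similar shares at 20000 reads, 80.3% for Thbd and 80.8% for Pros1, whereas those of Procr and Tfpi were lower.

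Procr (chr2:155751117-155755471, plus strand), which presents protein C to thrombomodulin, was in 62.2% of cells (58.4 to 65.9) and in 49.5% at 20000 reads, with a median of 0.21 and a highest value of 4.05. Tfpi (chr2:84432855-84476775, minus strand) was in 64% (60.2 to 67.7) and in 50% at 20000 reads, with a median of 0.32 and a highest value of 2.38. Plat (chr8:22757727-22782844, plus strand), the fibrinolytic member, was in 74.2% (70.7 to 77.5) and in 51.9% at 20000 reads. Its median was 0.41 and its highest value 4.65, equal to 103.4 reads per 10000. The top 10% of cells held 66.1% of the summed Plat level against 29.9% for Pros1, so Plat was unevenly spread although it was common.

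**Figure D1:**
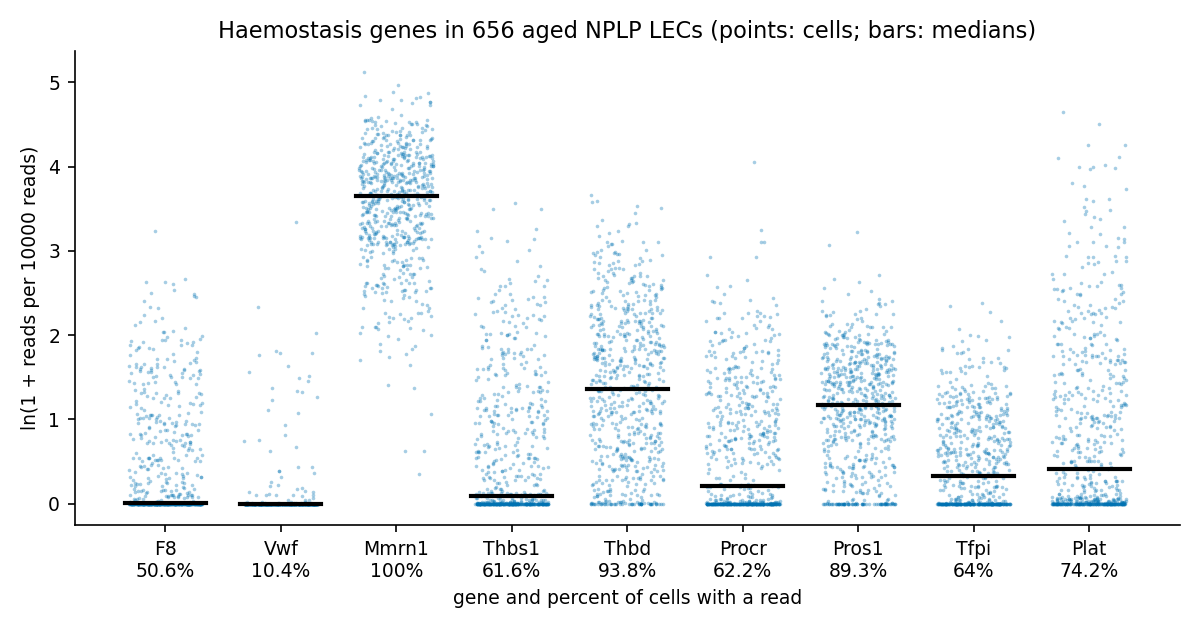
Level of each of the 9 genes (vertical axis, natural log of 1 plus reads per 10000 reads) in each cell (points), with the median as a bar and the percent of cells with a read under each name. Mmrn1 has no cell at 0 and a median of 3.65, Vwf lies at 0 in all but 68 cells, and Plat reaches 4.65.

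Levels were ranked between genes per kilobase of exon, which assumes that reads grow with exon length. That assumption was not tested. On this scale, in mean reads per 10000 per kilobase, Mmrn1 was highest at 7.01, followed by Thbd at 1.34 and Procr at 0.855. Plat at 0.682 and Pros1 at 0.674 were nearly equal, then came Thbs1 at 0.326, Tfpi at 0.178, F8 at 0.110 and Vwf at 0.0106. Mmrn1 alone made 62.7% of the sum over the 9 genes, and 99.6% of the 22258 genes with an annotated length lay below it. F8 lay above 82.9% of those genes and Vwf above 46.6%. The ends of the order did not depend on how cells were weighted, but when reads of all cells were pooled the sequence was Plat, Pros1 and then Procr, so the order of these 3 is not settled.

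Sequence windows from RefSeq (GRCm38.p6), given as promoters, were at hand for 5 of the 9 genes. Those of the gene with the highest level (Mmrn1), of the gene with the largest fold between clusters among those found in every cluster at 20000 reads, described below (Procr), and of the gene with the smallest (Pros1) are shown up to the base before an annotated exon, 5′ to 3′. The windows of Procr and Pros1 end at the start of the gene given above. The window of Mmrn1 lies inside the annotated gene, downstream of its start, so it is not shown to be a promoter of the gene. Its letters are printed as sequence only and are not on equal terms with the other windows. Capitals mark matches on either strand to the motifs searched. These were AGGAAG, found in sites of ETS factors, AGATAA, found in those of the GATA family, CCACCC, found in those of Krüppel-like factors, and TGACTCA, the site of AP-1.
Mmrn1, chr6:60944067-60944316, plus strand: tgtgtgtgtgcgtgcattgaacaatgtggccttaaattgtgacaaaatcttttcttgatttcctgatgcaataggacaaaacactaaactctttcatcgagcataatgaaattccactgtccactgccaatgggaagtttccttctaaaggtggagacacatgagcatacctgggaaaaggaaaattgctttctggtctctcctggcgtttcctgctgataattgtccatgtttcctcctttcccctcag
Procr, chr2:155750967-155751116, plus strand: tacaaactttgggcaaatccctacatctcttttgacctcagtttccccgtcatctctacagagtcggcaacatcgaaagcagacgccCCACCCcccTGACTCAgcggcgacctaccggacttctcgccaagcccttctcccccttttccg
Pros1, chr16:62854057-62854306, plus strand: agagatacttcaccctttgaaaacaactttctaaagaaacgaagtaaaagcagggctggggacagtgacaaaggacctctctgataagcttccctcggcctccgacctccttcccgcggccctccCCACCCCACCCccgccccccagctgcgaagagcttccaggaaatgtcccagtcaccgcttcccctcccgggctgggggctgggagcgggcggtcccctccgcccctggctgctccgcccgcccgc

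The Procr window held 1 CCACCC and 1 TGACTCA, the Pros1 window 2 overlapping copies of CCACCC, and the Mmrn1 window none of these letters. CCACCC is common: it was in 28.1% of all 32851 RefSeq windows cut to 250 bases and in 16.6% cut to 150 bases, the length shown for Procr. TGACTCA was rarer, in 2.52% of windows of 150 bases. AGGAAG was in 29.5% and AGATAA in 9.99% of windows of 250 bases. G and C made up 56% of the Procr window and 64.4% of the Pros1 window, and 42.4% of the Mmrn1 window, which lies inside its gene. A match is a description of letters and not of a bound site.

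Levels by class of cell were taken from a clustering in which the 9 genes and all other listed haemostasis genes took no part. It gave 5 clusters. Cluster 1 (32.8% of cells) had all 6 listed Ptx3+ capillary markers raised and is called Ptx3+ capillary-like. Cluster 3 (15.9%, led by Tppp3 and Fndc1) and cluster 4 (14%, led by Pthlh, Anxa8 and Ptn) were Ptx3- capillary-like, each by 3 of the 6 listed markers. These were Fndc1, Reln and Ccl21a in cluster 3 and Ptn, Anxa3 and Stc1 in cluster 4, with none in common. Cluster 5 (12.8%, led by Fxyd2 and Gdf15) was upstream valve-like by 3 of 6 markers, Cldn11, Gata2 and Neo1. Cluster 2 (24.5%, led by Ahsg, Spp1 and Kng2) stayed unnamed because precollecting and downstream valve markers were raised in equal number. Median depth ran from 73757 reads in cluster 4 to 237472 in cluster 5, and comparisons therefore used 20000 reads per cell unless full depth is named.

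Most of the genes differed in level between these clusters. Of the 9 genes, 7 had a mean level in reads per 10000 that was at least 2-fold higher in the highest than in the lowest cluster, Tfpi and Pros1 being the exceptions. The same size was reached by 29.2% of the 9716 genes found in at least 5% of cells, and by 26% of the 8312 of these that clustering had not used. The median fold was 4.49 over the 9 genes, or 5.86 with Vwf at the limit given below, against 1.71 over all genes. Of the 27 other listed haemostasis genes at that detection, 14 reached 2-fold, with a median fold of 2.28. The genes were chosen with results of these data known, so the counts describe this list and cannot be read as a test of it.

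F8 and Thbs1 were highest in the Ptx3+ capillary-like cluster. F8 was in 63.1% of its cells (55.8 to 70) and in 18.2% to 27.1% of the cells of the other 4 clusters, whose intervals overlapped one another and not that of cluster 1. The mean F8 level over cells at full depth was 0.82 in cluster 1 and between 0.17 and 0.31 elsewhere, and at 20000 reads it was 0.79 and between 0.12 and 0.30. Thbs1 was in 66.3% of cluster 1 (59.1 to 73), in 44.3% of cluster 3 (33.7 to 55.3) and in 23.7% to 27.4% of the rest.

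A single marker in place of clusters gave the same split, but this marker was raised in cluster 1 and is not independent of it. Among cells with reads of Stab2, a scavenger receptor of this capillary class, F8 was in 63.3% (55.7 to 70.4), against 24.6% (20.4 to 29.1) of cells without. For Thbs1 the shares were 66.1% and 30.7%. Within blocks of 96 consecutive cell numbers, cluster 1 exceeded cluster 4 in 10 of 11 blocks for F8 and in 11 of 11 for Thbs1. These clusters were picked as highest and lowest from full-depth means over the same cells, which favours such counts. For F8 at the fixed depth, cluster 3 and not cluster 4 was lowest. Block counts, here and for the genes below, describe spread within the pool and are not independent support. Cluster 1 also had the lowest median score of dissociation-response genes, 1.15 against 1.52 to 1.71 in the others, and the part of this in the F8 and Thbs1 levels was not tested. When no covariate was regressed before clustering, the difference in mean level at full depth between the best-matching clusters fell from 0.65 to 0.12 for F8 and from 0.69 to 0.37 for Thbs1. In that setting neither end was matched well, with Jaccard indices (shared cells over all cells of either cluster) of 0.36 for cluster 1 and 0.20 for cluster 4.

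Vwf followed another pattern. At 20000 reads it was in 13.2% of cluster 2 (8.13 to 19.8) and 10.5% of cluster 4 (4.66 to 19.7), which do not differ beyond their intervals. It was in 1.07% of cluster 1, in 2 cells. No cell of cluster 3 or 5 had a Vwf read at this depth, 0 of 88 and 0 of 73, which by the 3-cell rule allows shares of up to 3.41% and 4.11% (exact upper ends 4.11% and 4.93%). In mean reads per 10000, cluster 4 at 0.349 was 17-fold higher than the level that 3 reads over cluster 5 would give. Reads were not collapsed to molecules, and 1 cell can hold many, so this is not a lower bound on the fold. At full depth Vwf was seen in 17, 28, 7, 13 and 3 cells of clusters 1 to 5, so no cluster was without it.

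Plat was highest in the upstream valve-like cluster and in cluster 4. It was in 72.6% of cluster 5 (60.9 to 82.4) and 78.9% of cluster 4 (68.1 to 87.5), against 31% of cluster 1 (24.5 to 38.2). Mean levels in reads per 10000 were 13.8 in cluster 5, 7.09 in cluster 4 and 1.06 in cluster 1, a 12-fold range. Cluster 5 was above cluster 1 in 10 of 10 blocks, but both were picked from means over the same cells. Cldn11, a claudin of valve cells, was itself a raised marker of cluster 5. Cells with Cldn11 had Plat in 63.2% (56.8 to 69.2) and cells without it in 43.3% (37.8 to 48.9).

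Procr had the widest fold of the genes found in every cluster at 20000 reads. It was in 67.4% of cluster 2 (59.1 to 74.9), 63.2% of cluster 4 and 12.5% of cluster 3 (6.41 to 21.3). Its mean in reads per 10000 went from 0.108 in cluster 3 to 2.69 in cluster 5, which is 13.4-fold with 0.1 added to each mean. Thbd was most abundant in cluster 4, where 97.4% of cells had it (90.8 to 99.7) at a mean of 10.2 reads per 10000, and ranged from 2.68 to 5.64 elsewhere. Clusters 3 and 4 carried the same class name, but by different raised markers. Their intervals did not overlap for Vwf, Plat, Procr and Thbd, all higher in cluster 4. They overlapped for F8, Thbs1, Tfpi and Pros1. How many of all genes have intervals apart between these clusters was not computed, so the split describes the listed genes alone. Mmrn1 was in every cell of both clusters, but its mean in reads per 10000 at that depth was 56.4 in cluster 3 and 29.6 in cluster 4.

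Mmrn1 had the highest mean in cluster 3, 3.94, and the lowest in cluster 5, 3.11, on the natural log scale at full depth, and the range of its mean reads per 10000 at 20000 reads was 2.37-fold. Cluster 3 was above cluster 5 in 8 of 8 blocks, but both were picked from means over the same cells. The flattest genes were Pros1, in 74.9% to 87.5% of cells across the clusters, and Tfpi, in 39.7% to 60.5%. Their folds between clusters were 1.42 and 1.5. For Tfpi the highest cluster exceeded the lowest in only 5 of 9 blocks, and the intervals of all 5 clusters overlapped, so no order of clusters is given for it.

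**Figure D2:**
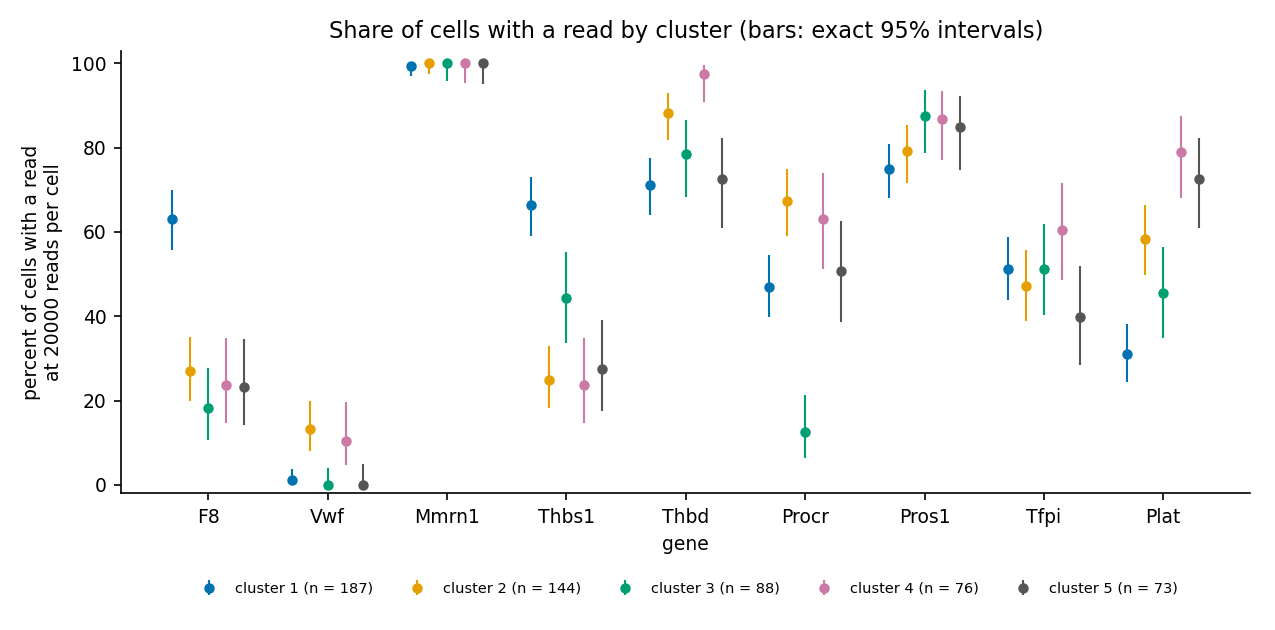
Percent of cells with a read of each gene at 20000 reads per cell (vertical axis) in the 5 clusters (colours, n in the key), with exact 95% intervals of counting error. F8 and Thbs1 are highest in cluster 1, Plat is highest in clusters 4 and 5, Procr is lowest in cluster 3 at 12.5%, and Vwf is above 10% in clusters 2 and 4 alone.

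The genes varied together only in part from cell to cell, and in both directions. Over the 36 pairs, Spearman's rho across the thinned cells had a median of 0.027 and ran from -0.33 to 0.32, with 20 pairs above 0 and 19 beyond 0.1 in size. The cells share a pool, and these values are descriptions without a test. The 5 pairs beyond 0.25 were F8 with Mmrn1 (0.32), Thbs1 with Mmrn1 (0.30), F8 with Thbs1 (0.29), Procr with Thbd (0.26) and Plat with Mmrn1 (-0.33). After the mean rank of each cluster was removed, F8 with Mmrn1 stayed at 0.29 and Procr with Thbd at 0.21, while F8 with Thbs1 went to 0.17 and Plat with Mmrn1 to -0.18.

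**Figure D3:**
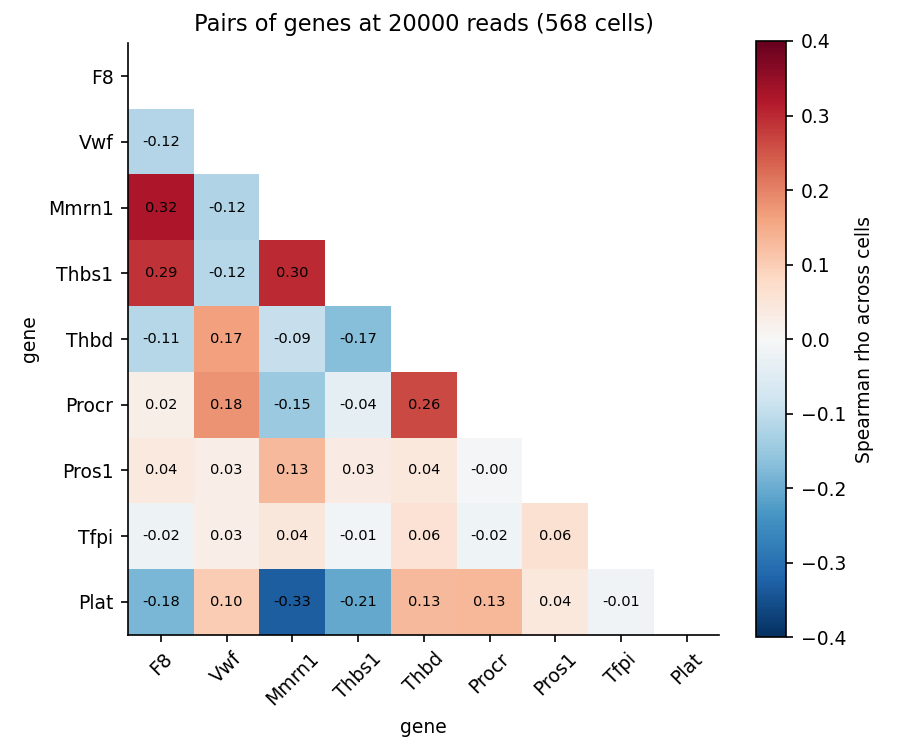
Spearman's rho across cells at 20000 reads for each of the 36 pairs of genes (colour and number; red above 0, blue below). F8, Mmrn1 and Thbs1 form the group of positive values, up to 0.32, Procr with Thbd stands at 0.26, and Plat with Mmrn1 is the lowest at -0.33.

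Joint detection showed where partners of 1 pathway met in the same cell. Thbd and Procr, which act together on protein C, were both found in 43.3% of cells at 20000 reads, and Procr was in 53.9% (49.2 to 58.6) of cells with Thbd against 31.2% (22.8 to 40.7) of cells without it. At 20000 reads, F8 and Vwf, which circulate as a complex, were rarely found together. F8 was in 4 of the 29 cells with Vwf, 13.8% (3.89 to 31.7), and in 37.8% (33.7 to 42.1) of the other cells. In contrast Procr was in 23 of those 29 cells, 79.3% (60.3 to 92), against 47.9% (43.6 to 52.2). Of the 29 cells with Vwf, 19 lay in cluster 2 and 8 in cluster 4. In these clusters F8 was in 27.1% and 23.7% of cells, and Procr in 67.4% and 63.2%. The part of the clusters in the shares of F8 and Procr among cells with Vwf was not tested. At full depth many cells with Vwf reads also had F8 reads, so the low overlap of F8 and Vwf describes the fixed depth alone. F8 was in 51.9% (45.3 to 58.4) of cells with Thbs1 and in 25.7% (21.1 to 30.7) of cells without.

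The genes most like each of the 9 across the thinned cells were sought among 3314 genes found in at least 30% of them. For F8 they were Gm525 (rho 0.48), Stab2 (0.43), Igfbp4, Aqp1 and Tnc, and for Thbs1 they were Gm525 (0.45), Aqp1 (0.44), Stab2, Scn3a and Gmfg, so 3 of the 5 were shared. Mmrn1 went most closely with Reln (0.71), which encodes the secreted protein reelin, then with Lyve1 (0.55), the hyaluronan receptor of lymphatic capillaries, Selenop, Rnase4 and Stab1. Thbd was nearest to Igfbp5 (0.43), Slco2a1 (0.41), a prostaglandin transporter, Sdc1, Htr2b and Tsc22d3.

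Plat was nearest to Nts (0.37), Slc41a1, Pdlim4, Parm1 and Nos3, the endothelial nitric oxide synthase (0.32). Parm1 also headed the lists of Procr (0.33, then Tmem176b, Plvap, Bgn and Itm2c) and of Vwf (0.35, then Tspan7, Clu, Bcam and Clca3a1). Tfpi and Pros1 had no near neighbour. Their highest values were 0.19 with Ctsa and 0.18 with Emcn, and the next 4 genes were Rps7, Tspan31, Dctn1 and Atp5f1 for Tfpi and Htr2b, Sptlc2, Serpinb6a and Gm10036 for Pros1.

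Around these 9 genes, 42 other haemostasis genes of the listed groups were in the table, and 27 of them were found in at least 10% of cells. How many of all genes reach 10% was not computed. This count and the group counts that follow therefore describe the listed genes and do not set them apart from other genes. Of the other clotting factors none of 5 reached 10%. F10 was in 4.27% of cells (2.85 to 6.11), F2 in 0.762% and F3, tissue factor, in 0.610% (0.166 to 1.55), while F13a1 was at 0 cells, which by the same rule allows up to 0.457% (exact upper end 0.561%). F8 was therefore the single procoagulant factor of the 6 in the table that was seen in over 10% of cells. Of the other anticoagulant genes 3 of 6 reached 10%. They were Gas6 (83.7%), a relative of protein S, Hs3st1 (66.2%), which makes the heparan sulphate that binds antithrombin, and Tfpi2 (27.9%).

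Of the other fibrinolysis genes 7 of 9 reached 10%. Anxa2 (99.8%) and S100a10 (98%) form a surface complex that binds plasminogen and tissue plasminogen activator, and Serpine2 (86.7%) is a protease inhibitor. Of the other genes of platelet adhesion and Weibel-Palade bodies 6 of 7 reached 10%, led by Cd63 (99.1%), Mmrn2 (89.6%) and Angpt2 (79.4%). Angpt2, which is stored in these bodies, was thus in more cells than Vwf (10.4%). Of the less frequent genes of this group, Selp was in 27% of cells and Adamts13 in 0.762%. At the fixed depth, Vwf was in 4.35% of cells with Angpt2 (2.40 to 7.19) and 6.10% of those without (3.45 to 9.86).

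Of 5 genes that restrain platelets, Nos3 was in 59.9% and Ptgs1 in 14% of cells, while Entpd1, Nt5e and Ptgis were in 0% to 1.83%. The thrombin receptor gene F2r was in 75.3% and F2rl1 in 41.8%. All 6 genes that process clotting factors reached 10%. Mcfd2 (65.9%) and Lman1 (57.8%) form the receptor that carries factor VIII out of the endoplasmic reticulum, and Vkorc1 (52.1%) serves the vitamin K cycle that protein S needs. F8 was in 34% of cells with Lman1 (28.1 to 40.3) and in 38.6% of cells without (33.3 to 44.2), intervals that overlap. Pdpn, the platelet ligand used in the sort, was in 94.8%.

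**Figure D4:**
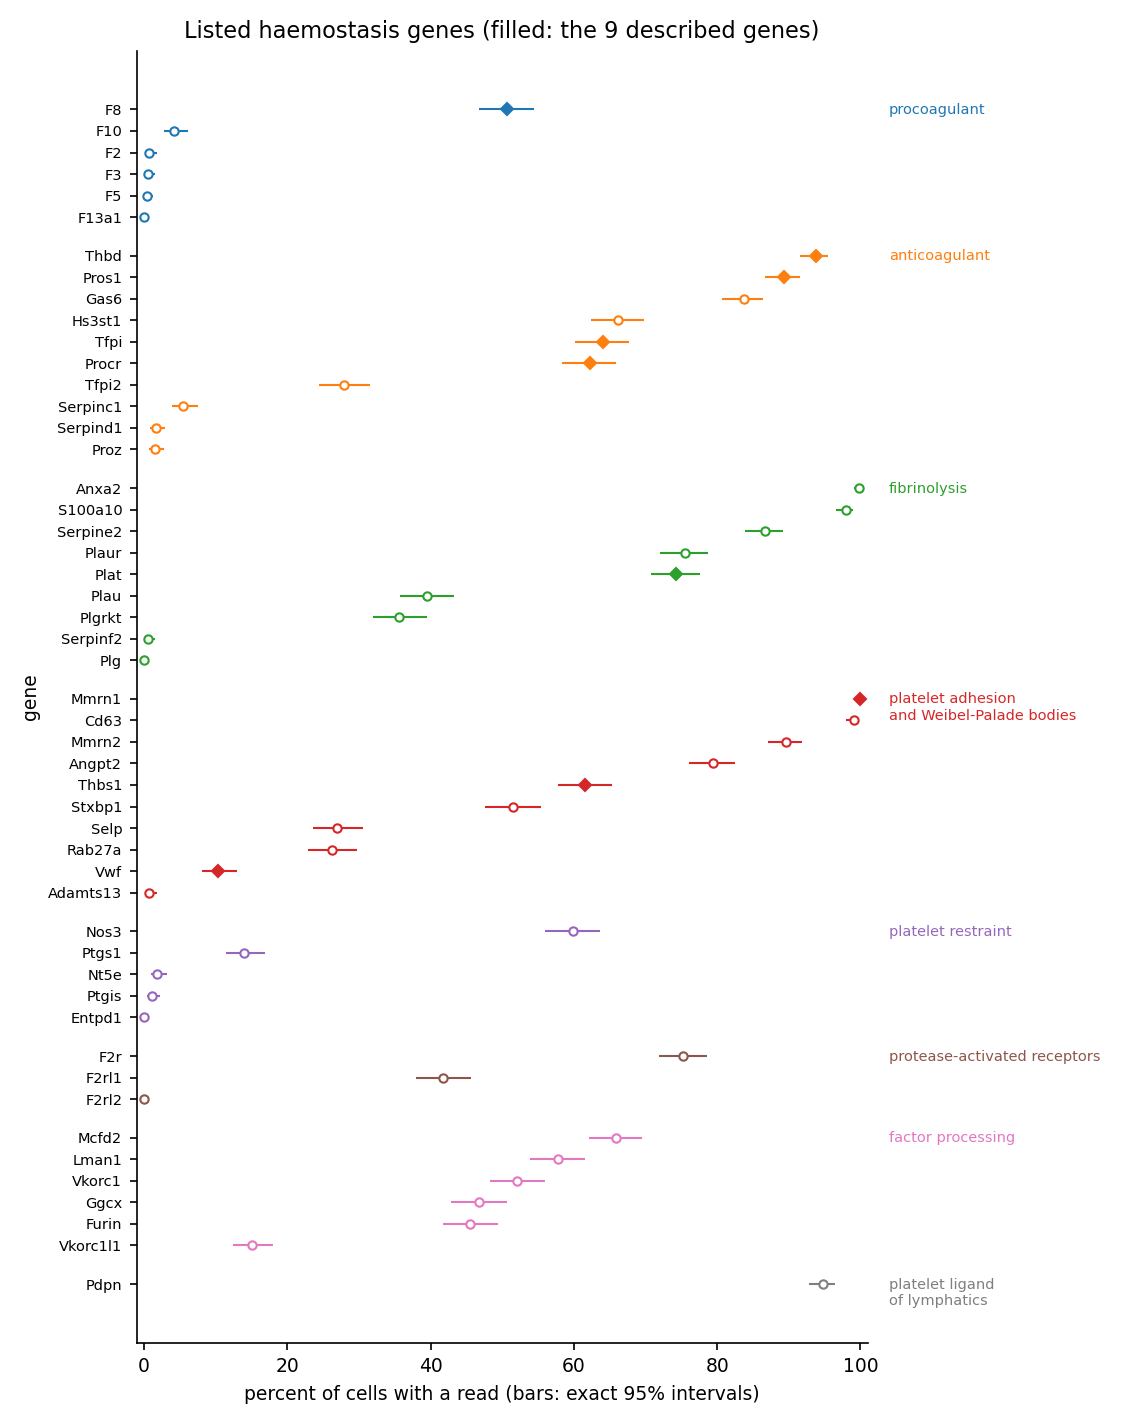
Percent of all cells with a read (horizontal axis, exact 95% intervals) of the listed haemostasis genes, by functional group (colours), with the 9 described genes filled. In the procoagulant group F8 is alone above 10%, whereas several genes of the anticoagulant, fibrinolysis, and platelet adhesion and Weibel-Palade groups exceed 80%.

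Platelets and blood cells also carry several of the 9 transcripts, so their markers were set beside the levels. The 4 platelet markers in the table were in 0.457% to 2.90% of cells, 5 haematopoietic markers in 0.457% to 5.79%, 3 epithelial in 0% to 0.610%, with 2 of them at 0, 5 mural in 0.610% to 3.51% and 3 glial in 1.68% to 4.57%. Vwf was in 5.13% of the thinned cells with any of these markers and in 5.10% of those without, and F8 in 36.5% and 36.7%. For both genes the shares differed by less than their intervals. Of the 9 genes Thbd had the widest gap, 86.5% (80.2 to 91.5) with any of these markers and 77.9% (73.6 to 81.8) without. These intervals overlap. Fibroblast markers were more frequent, up to 30% for Dcn, and without the cells that had any of them the difference in mean Vwf level at full depth between clusters 2 and 5 fell from 0.12 to 0.076. Markers of blood endothelium were in 1.98% to 96.2% of cells, and LECs share several of them. Of these 7 markers, Plvap and Aqp1 were raised in cluster 1, Emcn in cluster 2 and Cd34 in cluster 4, and none in clusters 3 and 5. Their part in the cluster results was not tested.

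Blocks of 96 consecutive cell numbers were used to look for technical spread. They held 18 to 83 cells each, with median depths of 52583 to 2450279.5 reads. At 20000 reads the mean F8 level ran from 0.24 to 0.60 over the 12 blocks, Mmrn1 from 3.40 to 3.83 and Procr from 0.49 to 0.72. The largest departures were those of Thbs1, 1.37 in block 9 against 0.26 to 0.88 in the others, and of Tfpi, 0.87 in block 8 against 0.36 to 0.55. Blocks 8 and 9 were the smallest, with 18 and 20 cells, and the deepest before thinning.

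**Figure D5:**
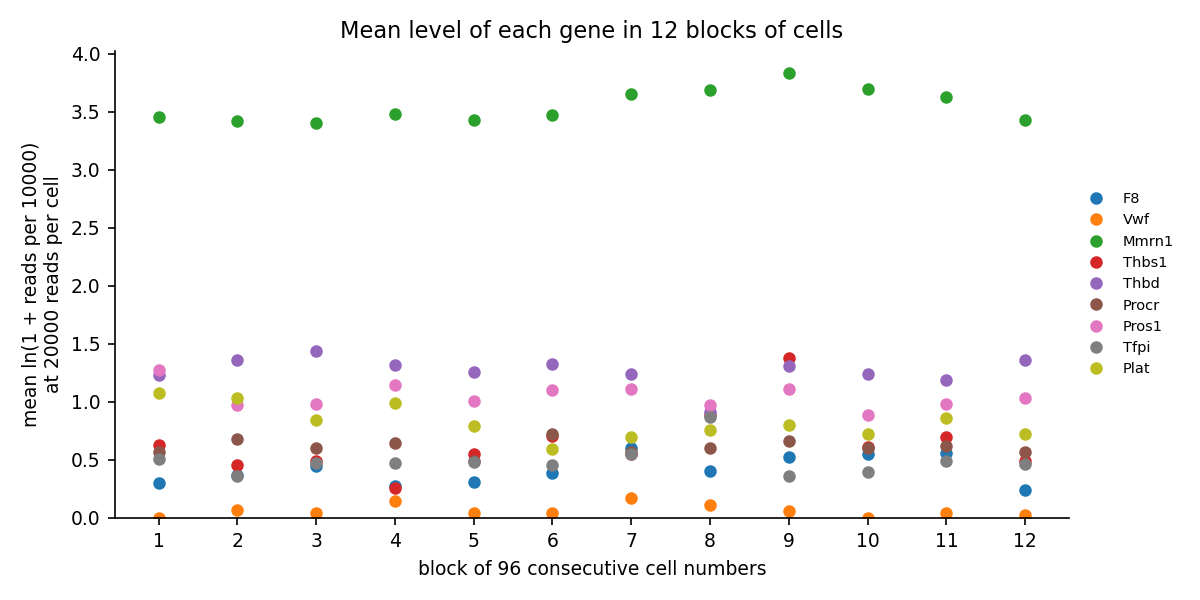
Mean level of each gene (vertical axis, natural log of 1 plus reads per 10000 at 20000 reads per cell) in 12 blocks of 96 consecutive cell numbers (horizontal axis; points are block means). Mmrn1 lies between 3.40 and 3.83 in every block, Vwf at or below 0.17, and Thbs1 in block 9 and Tfpi in block 8 lie above their other blocks.

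Several of these genes are known to respond to flow and stress, and tissue digestion raises stress genes. Over the thinned cells, rho with the mean level of 14 dissociation-response genes was -0.33 for Mmrn1, -0.13 for F8 and 0.17 for Plat, and from -0.049 to 0.078 for the other 6. Plat was in 59.2% of the 25% of cells with the highest scores and in 35.9% of the 25% with the lowest, and F8 in 28.9% and 41.5%. Mmrn1 had a rho of -0.21 with Fos, -0.21 with Klf2 and -0.25 with Klf4, the largest in size of the 9 genes for each of these 3. With Klf6 its rho was 0.078, and the largest were 0.11 for Thbs1 and -0.10 for Thbd. Whether digestion had a part in these levels was not tested.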

How the data were processed

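Smart-seq3 libraries of single sorted cells had been aligned by the authors to mm10 with STAR and counted with featureCounts (Subread), and values were made with Seurat 4.1.0, with cells under 2000 genes or over 10% mitochondrial reads removed. The deposited values were natural log values of 1 plus reads per 10000. The methods name log2, but only base e gave a sum of 10000 in each cell. With the smallest value of each cell set to 1 read, 100% of values above 0 were whole within 0.01 reads. Reads were not collapsed to molecules.

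Of 1152 labelled cells, 656 were analysed and 496 were not analysed here. Each of 568 cells was thinned to 20000 reads (88 were shallower). Clustering used Seurat 5.3.0 (R 4.3.3) with 2000 variable genes. Any of the 67 listed haemostasis genes among these were left out, and 1989 genes remained. Total reads, mitochondrial share, dissociation and ribosomal scores were regressed. Clusters were made from 15 principal components at the lowest resolution, in steps of 0.1, that gave at least 5 clusters, here 0.7. No doublet caller was run on these plate-sorted cells. A class name needed at least 3 markers raised 1.5-fold and found in 10% of the cluster, more than any other class. Folds had 0.1 reads per 10000 added. Lengths and positions came from GENCODE M21 (GRCm38). Intervals came from scipy 1.17.1.

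The 9 genes and all lists were chosen with earlier results of these data known. Named were the 9 genes, the 3 most frequent other genes of each group, the 5 nearest genes by rho, and Fos, Klf2, Klf4 and Klf6. Further genes, such as F2, F3, Stab2, Cldn11 and the joint-detection pairs, were picked after their values were seen. A listed gene counted in its group is not reported here. Recovery, thinning, rho and clustering were checked on simulated data. Alternatives were depth, detection threshold, cell filters, gene length, cell weights and clustering settings.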

Additional observations from a re-analysis of the deposited data

How the results depend on the processing

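No difference between clusters and none of the 5 named rho values changed sign under the alternatives that gave a value, but with pooled reads Procr passed from above to below Plat and Pros1 in the level per kilobase. The median share of positive cells, 64%, was 29.9% when a value above 1 was required, 50% at 20000 reads, 56% at 50000 reads and 69.3% once the 25% of cells with fewest detected genes had been dropped, so these shares depend on depth. Over blocks left out in turn it ran from 63.2% to 65.1%. The median level of the 9 genes, 0.64, was 1.09 as the log of the linear mean and 1.15 from pooled reads, where deep cells weigh more, and 0.62 to 0.66 with blocks left out. The median difference between the highest and lowest cluster, 0.69, was 0.40 between cells split by single markers without clustering, and 0.62 to 0.94 under all other settings. The Mmrn1 share of the summed level per kilobase lay between 61.6% and 65.7%, and the median rho between 0.0086 and 0.030. Of the differences between the highest and lowest cluster of single genes, 13 moved by over 1.5 times, 6 of them for Tfpi, and the others did not. Leaving out cells with fibroblast markers and averaging differences within blocks were chosen after the data were seen. No paired analysis was possible because there was a single group. With 1 pool, nothing here measures the spread between mice, and joint absence of a transcript in shallow cells cannot be read as absence of expression.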

Other observations

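Other haemostasis genes also differed between the clusters, described here at 20000 reads per cell and chosen after their values were seen. Angpt2, an angiopoietin stored in Weibel-Palade bodies, was in 73.3% of cluster 1 and 71.2% of cluster 5 but in 32.9% of cluster 4, so its order was not that of Vwf. Ptgs1, the prostaglandin synthase, was in 23.7% of cluster 4 and 16% of cluster 2, the clusters with most Vwf, and in 0 of the 88 cells of cluster 3, which by the 3-cell rule allows up to 3.41%. Nos3 was in 71.1% of cluster 4 and 68.1% of cluster 2 against 22.5% of cluster 1 and 25% of cluster 3. Rab27a, which guides release of Weibel-Palade bodies, was in 36.4% of cluster 3 and 6.25% of cluster 2. F2rl1 was in 48.9% of cluster 3 and 15.5% of cluster 1.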
